A study of Mus musculus with 60 samples.

Results

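The genes of the opioid system were followed in the striatum of 60 mice. They were chosen by name as the opioid receptor genes Oprk1, Oprm1, Oprd1 and Oprl1 and the opioid peptide genes Penk, Pdyn and Pnoc, without use of any measured value. Of these 7 genes, 4 were found among the 9066 genes of the gene table after Ensembl identifiers had been matched to symbols: Oprk1 (ENSMUSG00000025905), Oprm1 (ENSMUSG00000000766), Oprd1 (ENSMUSG00000050511) and Penk (ENSMUSG00000045573). They held 31 of the 114691 rows of the exon table. Oprl1, Pdyn and Pnoc were not in the gene table used here. PolyA RNA from hand-dissected striatum had been sequenced in 1 library per mouse. All mice were HS-CC mice, a heterogeneous stock bred from the inbred founder strains of the collaborative cross, and they descended from earlier generations that had been bred selectively for their response to haloperidol. The labels give each mouse a sex and a phenotype for catalepsy, a state of immobility: 13 females were non-responders and 15 responders, and 17 males were non-responders and 15 responders. Age, drug dose and the time between the behavioural test and dissection were not given in the sources used here.

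Opioid receptors are G protein-coupled receptors that act through the inhibitory Gi and Go proteins, lowering cyclic AMP, opening potassium channels and closing calcium channels. Oprk1 encodes the kappa receptor, whose main endogenous ligands are the dynorphins, Oprm1 the mu receptor, the main target of morphine, and Oprd1 the delta receptor, which binds enkephalins. Penk encodes proenkephalin, the precursor of the enkephalins. In the striatum Penk is a classical marker of the medium spiny neurons that express the dopamine D2 receptor and form the indirect pathway. Haloperidol blocks this receptor.

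Proenkephalin, which is cut at pairs of basic residues, holds several copies of the short enkephalin core. The Penk values given here are RNA counts and do not measure these peptides. In the coding sequence of transcript Penk-201 (GENCODE M21, build GRCm38, minus strand) the core was found 7 times, 6 times ending in methionine and 1 time, in repeat 6, in leucine. Each is printed 5′ to 3′ with the core in capitals and 6 bases on either side.
Penk repeat 1 (chr4:4134328-4134354): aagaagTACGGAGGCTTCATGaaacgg
Penk repeat 2 (chr4:4134307-4134333): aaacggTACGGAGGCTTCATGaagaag
Penk repeat 3 (chr4:4134220-4134246): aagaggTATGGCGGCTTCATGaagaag
Penk repeat 4 (chr4:4134067-4134093): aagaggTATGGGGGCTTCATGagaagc
Penk repeat 5 (chr4:4133995-4134021): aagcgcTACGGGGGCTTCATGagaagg
Penk repeat 6 (chr4:4133935-4133961): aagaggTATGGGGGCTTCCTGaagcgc
Penk repeat 7 (chr4:4133842-4133868): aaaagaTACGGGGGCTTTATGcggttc
In repeats 4 and 7 the bases printed after the core do not code for a pair of basic residues. All 7 copies lie in the last exon of the gene, to which most Penk reads were assigned, as shown with the exon values.

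The coding sequences of the 3 receptors were compared because related genes can share reads. Aligned end to end, they were identical at 68.3% of positions for Oprk1 and Oprm1, 66.5% for Oprk1 and Oprd1 and 69.3% for Oprm1 and Oprd1. The longest stretch shared without a mismatch had 17, 23 and 20 bases, in that order, and all lie in the same conserved segment.
Oprk1 and Oprm1 (Oprk1 at chr1:5598744-5598760, plus strand): GACTACTACAACATGTT
Oprk1 and Oprd1 (Oprk1 at chr1:5598738-5598760, plus strand): TCCATTGACTACTACAACATGTT
Oprm1 and Oprd1 (Oprm1 at chr10:6829039-6829058, plus strand): GACTACTACAACATGTTCAC
These are GRCm38 coordinates from the GENCODE M21 transcripts.

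The recovered reads per library ranged from 4913122 to 21872744, with a median of 14520042, and fell into separate ranges: 17 mice had 4913122 to 9507322 reads and 43 mice had 12051239 to 21872744. The lower range held 4 of the 13 and 4 of the 15 females without and with a response, and 5 of the 17 and 4 of the 15 males. Coverage along transcripts was summarised as 3′ bias, the median over 5209 genes with at least 5 exon rows of the slope of log2 exon value from the 5′ to the 3′ end, relative to the mean of all mice. None of the 4 opioid genes entered it. Mouse 63 (female responder) stood at 1.48, mouse 5 (female non-responder) at 0.907, mouse 4 (male responder) at 0.683 and mouse 62 (male non-responder) at 0.477, while the next mouse reached 0.187. Results that rest on these 4 mice are given with and without them. Of the 16 markers listed for medium spiny neurons, 15 were in the gene table, and none of these was at 0 in any mouse. Drd1, the dopamine D1 receptor, was not in the table. Of 17 cortical markers 7 were present, among them Tbr1, and their summed level ranged from 8837 to 32954 over the mice. None of 5 genes listed to check the sex labels (Xist, Ddx3y, Uty, Kdm5d and Eif2s3y) was in the gene table, so the labels of sex could not be checked.

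Values are given as normalised read counts, the deposited counts scaled by 1 factor per library. All 4 genes had reads in all 60 mice. Penk was among the most abundant transcripts of the table, and its mean of 21954 lay at percentile 99.6 of gene means. Oprk1 averaged 966, Oprd1 623 and Oprm1 191, at percentiles 62.4, 49.4 and 20.6. Oprm1 was the gene with the fewest reads, 14 to 319 per library before scaling with a median of 163.5, whereas Penk had 5014 to 44364. Oprm1 also varied most between mice, with a coefficient of variation of 0.529, at percentile 97.3 of the 8535 genes with a mean of at least 10. The coefficient was 0.238 for Oprk1 and for Oprd1 and 0.281 for Penk.

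To compare levels between genes, values were divided by the length of the merged exons in GENCODE M21, which is 9151 bases for Oprk1, 8037 for Oprm1, 4021 for Oprd1 and 1634 for Penk. On this scale Penk averaged 13436 normalised reads per kb (range 7534 to 26032), Oprd1 155 (40.6 to 233), Oprk1 106 (60.4 to 159) and Oprm1 23.8 (1.68 to 73.5). The order of Penk over Oprd1 held in 60 of 60 mice, with a ratio from 42.6 to 642 and a median of 80.2. Among the receptors Oprk1 exceeded Oprm1 in 60 of 60 mice, by a median of 4.50 times. Oprd1 exceeded Oprk1 in 54 of 60 mice, by a median of 1.51 times, and in the 4 mice with the highest 3′ bias this ratio was 0.455 to 1.02. The lengths include alternative exons of Oprm1 that carried no reads, so its level per kb and its ratio to Oprk1 depend on the gene model. Most of its reads lay in exons of 589, 353, 663 and 808 bases. The count of 60 of 60 mice was not repeated on these shorter lengths. The level per kb of Oprk1 depends on the gene model too, since its first and second exon rows fall in the same merged exon of 2846 bases. In the last rows alone, Oprk1 averaged 770 counts over 3880 bases and Oprd1 517 over 3343, which is the other order. The order of Oprd1 and Oprk1 thus depends on the lengths used.

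Oprk1 lies on the plus strand at chr1:5588466-5606131 (GRCm38), with 3 merged exons. In females its lowest, median and highest normalised counts were 552, 936 and 1355 without a response and 590, 976 and 1307 with one. In males they were 653, 957 and 1453 without and 560, 970 and 1443 with a response. The 4 groups covered almost the same range. The lowest mouse, number 13, and the highest, number 46, were both non-responders.

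Oprm1 lies on the plus strand at chr10:6758506-7038198 and has 31 annotated transcripts built from 22 merged exons. Female non-responders had a lowest, median and highest normalised count of 32.4, 192 and 591, and female responders 13.5, 189 and 396. For males the values were 66.1, 161 and 366 in non-responders and 45.4, 130 and 341 in responders. Both extremes were females. The highest 3 mice, number 45 at 591, number 53 at 412 and number 43 at 396, all belonged to the lower read range, and the lowest 3, numbers 63, 5 and 4, were the mice with the highest 3′ bias.

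Oprm1 has several annotated starts. The promoter shown is that of the first exon with reads, chr10:6788570-6789158, as the 250 bases before its start (RefSeq, GRCm38.p6, plus strand).
Oprm1 promoter (chr10:6788320-6788569): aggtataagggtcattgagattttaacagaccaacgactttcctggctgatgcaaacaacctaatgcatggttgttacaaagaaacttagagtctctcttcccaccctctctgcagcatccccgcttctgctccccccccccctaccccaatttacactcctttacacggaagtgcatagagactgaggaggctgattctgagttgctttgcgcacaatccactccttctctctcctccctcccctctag
Its GC content was 50%, against a median of 52.4% over 32851 promoter windows of the table, and it held 4 CG dinucleotides against a median of 6. Neither strand held the GC box GGGCGG, present in 32.7% of all windows, nor the E box CACGTG, present in 6.02%. The cyclic AMP response element TGACGTCA (1.55% of windows) and the TATA motif TATAAA (12.4%) were not found either.

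Oprd1 lies on the minus strand at chr4:132110726-132144486, with 3 merged exons. Its lowest, median and highest normalised counts were 273, 689 and 936 for females without a response and 163, 657 and 866 for those with one. The corresponding male values were 368, 614 and 822, and 305, 616 and 781. The highest mice, numbers 53 and 55, were females of the lower read range. The lowest were again mice 63, 5 and 4.

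The promoter window of Oprd1 is printed for contrast with that of Oprm1, since both genes were low in the same mice (RefSeq, GRCm38.p6, minus strand, motif matches in capitals).
Oprd1 promoter (chr4:132144487-132144736): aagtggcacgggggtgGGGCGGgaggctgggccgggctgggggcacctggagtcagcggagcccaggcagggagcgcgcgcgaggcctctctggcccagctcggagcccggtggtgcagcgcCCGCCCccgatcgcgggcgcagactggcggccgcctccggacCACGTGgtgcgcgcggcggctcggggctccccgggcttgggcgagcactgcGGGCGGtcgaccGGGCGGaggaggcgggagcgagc
Its GC content of 80% was at percentile 98.8 of the windows, and it held 34 CG dinucleotides. Of the motifs searched in Oprm1, the GC box was found 4 times and the E box 1 time, both strands counted, and the other two were not found. Matches of this kind are descriptions of the letters and were not tested as binding sites.

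Penk lies on the minus strand at chr4:4133531-4138819, with 3 merged exons. Lowest, median and highest normalised counts of 12311, 21007 and 40908 were found in the female non-responders and of 15790, 20963 and 42536 in the responders of that sex. Male mice had 13478, 20086 and 30193 without a response and 12918, 21507 and 29870 with it. The 2 highest values were those of mouse 63, a responder, and mouse 5, a non-responder. Mice 13 and 16 were the lowest for both Penk and Oprk1.

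**Figure D1:**
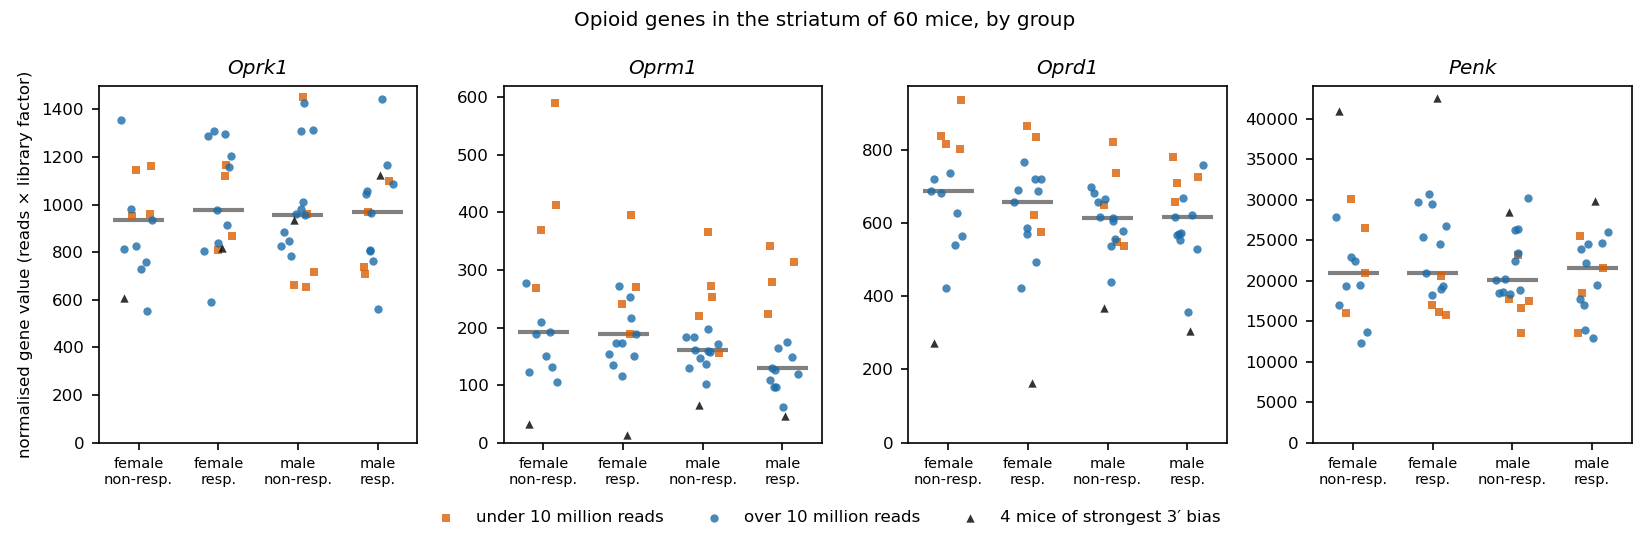
Normalised read counts (y axis, from 0) of Oprk1, Oprm1, Oprd1 and Penk by sex and catalepsy phenotype (x axis), 1 point per mouse (13, 15, 17 and 15 mice), with the median of each group as a line. Squares are mice of the lower read range and triangles the 4 mice of highest 3′ bias. Group medians run from 936 to 976 for Oprk1 and from 130 to 192 for Oprm1. The highest value of Oprm1 (591) is that of a female of the lower read range. The highest values of Penk (42536 and 40908) are those of females among the 4 mice of highest 3′ bias.

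Whether these genes differ with the catalepsy phenotype was the first comparison the labels allow. None of the 4 genes passed the test between responders and non-responders (limma on log2(value + 1), adjusted for sex, Benjamini-Hochberg over 8535 genes averaging at least 10). Of all genes tested, 9 were called at an adjusted p of 0.05, which is 0.105%. Oprk1 had a median of 973 in 30 responders and 945 in 30 non-responders, and responders were 0.06 higher on the log2 scale (SE 0.089, 95% confidence interval -0.12 to 0.24, adjusted p = 0.999). For Oprm1 the medians were 168 and 177, and the log2 difference was -0.23 (SE 0.218, interval -0.66 to 0.21). Its interval is the widest of the 4, and with 3′ bias as a term the difference was -0.076 (SE 0.0965). Oprd1 had medians of 622 and 640 and a log2 difference of -0.07 (SE 0.109, interval -0.29 to 0.15). Penk had medians of 21235 and 20129 and a log2 difference of 0.03 (SE 0.0985, interval -0.17 to 0.22). The adjusted p of limma was 0.999 for each of the 4 genes, and permutation tests of the group labels within sex, two-sided with 100000 resamples, gave unadjusted p of 0.527, 0.330, 0.552 and 0.784 for Oprk1, Oprm1, Oprd1 and Penk. For Oprk1 and Penk, 17 of 30 responders lay above the median of the non-responders, for Oprd1 14 and for Oprm1 12. At most 2 mice of a group lay outside the range of the other group on the same side. In this bulk tissue, fewer cells of a type and less RNA per cell cannot be told apart.

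Between the sexes, 0 of the 4 genes passed, against 3 of all genes tested (0.0351%). The log2 difference of females from males was -0.01 for Oprk1 (SE 0.0892, interval -0.19 to 0.16), 0.21 for Oprm1 (SE 0.219, interval -0.23 to 0.65), 0.06 for Oprd1 (SE 0.109, interval -0.16 to 0.27) and 0.11 for Penk (SE 0.0987, interval -0.09 to 0.30). The adjusted p was 1.00 for each gene (limma). With library range and 3′ bias as terms, chosen after seeing the data, Oprm1 was 0.25 higher in females (SE 0.0909, unadjusted p = 0.0088), which did not pass over all genes (adjusted p = 0.781, limma).

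The response difference itself was compared between the sexes by an interaction term. No gene of the whole table passed with limma (0.0%), edgeR or DESeq2, with 48, 44 and 48 genes at an unadjusted p under 0.05. The response difference in females minus that in males was 0.20 for Oprk1 (SE 0.178, interval -0.16 to 0.55), 0.07 for Oprm1 (SE 0.441, interval -0.81 to 0.95), -0.08 for Oprd1 (SE 0.219, interval -0.51 to 0.36) and 0.15 for Penk (SE 0.198, interval -0.24 to 0.55). These intervals are at least 2 times as wide as those of the response itself.

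**Figure D2:**
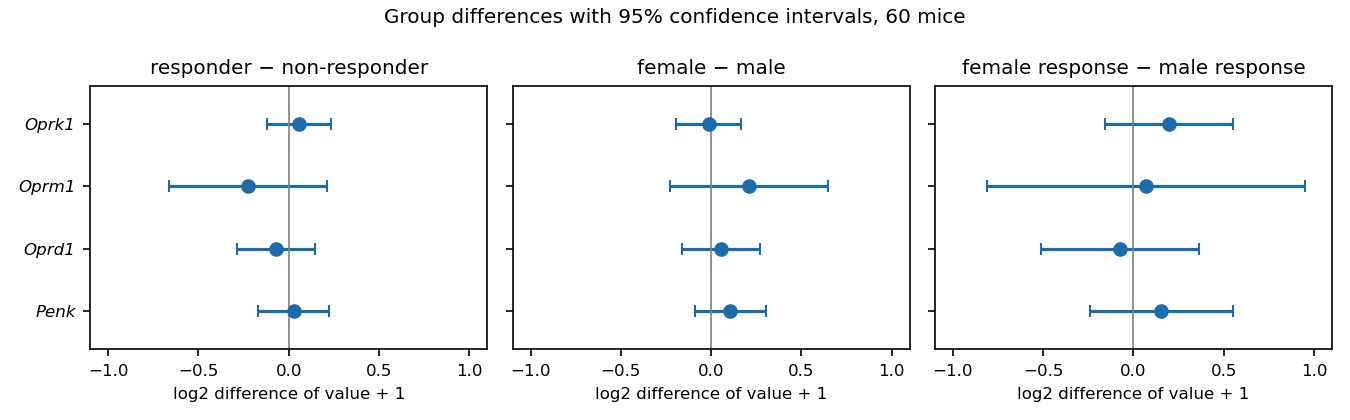
Log2 differences (x axis) of the 4 genes for response, sex and their interaction, with points for the limma estimate and bars for its 95% confidence interval, 60 mice. All bars include 0, and the bar of Oprm1 is the widest in each comparison.

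The receptors differed in how they followed the libraries. The lower read range is made up of mouse 26 and the consecutive mice 41 to 56. Its median 3′ bias was -0.254, against 0.011 in the higher range, so reads and bias run together in this comparison. Mice 41 to 56 had a bias of -0.316 to -0.170. Mouse 26 had -0.013 and the lowest Oprm1 value of its range. Oprm1 had a lowest, median and highest value of 156, 271 and 591 in the 17 mice of the lower read range and of 13.5, 150 and 277 in the 43 others, a log2 difference of 1.12 (SE 0.197, adjusted p = 6.1e-06, limma). All of the 17 lay above the median of the 39 mice that had neither low reads nor high 3′ bias, and 8 lay above the highest of them. Oprd1 was 538 to 936 (median 737) against 163 to 767 (median 607), a log2 difference of 0.37 (SE 0.111, adjusted p = 0.0045, limma). Penk (median 17775 against 22396, log2 difference -0.22, SE 0.106, adjusted p = 0.0708) and Oprk1 (median 960 against 957, log2 difference -0.03, SE 0.099, adjusted p = 0.83) did not pass the limma test. Of all genes 53% were called between the read ranges, 25.3% higher and 27.7% lower in the lower range, so 2 of 4 is close to that share.

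Along the 3′ bias the same receptors fell. Oprm1 was 13.5 to 66.1 in the 4 mice of highest bias and 62.3 to 591 in the other 56, and 3 of the 4 lay below all others. Per unit of bias its log2 level changed by -2.68 (SE 0.167, adjusted p = 7.5e-22, limma with response and sex). Oprd1 was 163 to 368 in the 4 mice and 358 to 936 in the others, with a change of -1.24 per unit (SE 0.104, adjusted p = 3.0e-16, limma). Penk moved the other way, with 28545 to 42536 in the 4 mice, 12311 to 30746 in the others and a change of 0.69 per unit (SE 0.147, adjusted p = 3.3e-05, limma). Oprk1 was 609 to 1125 in the 4 mice and 552 to 1453 in the others, and its change of -0.18 per unit did not pass (SE 0.153, adjusted p = 0.276, limma). The relations within the higher read range and without the 4 mice, in 39 mice, had r = -0.50 for Oprm1, -0.17 for Oprd1 and -0.067 for Penk, and those of Oprd1 and Penk did not pass (adjusted permutation p = 0.45 and 0.72). The bias term was called for 76.9% of all genes, with 39.6% rising and 37.4% falling with it. For 10.8% of genes all 4 mice lay below all 56 others and for 7.56% above them, and none of the opioid genes was among either. Both terms were also put in 1 fit, chosen after seeing the data. There the lower read range had a difference of 0.34 for Oprm1 (adjusted p = 0.035, limma) and -0.03 for Oprd1 (adjusted p = 0.80, limma). The changes per unit of bias were -2.41 and -1.26, and the bias term was called for 5925 of 8535 genes. The share of all genes called for the read range in this fit is not given here, so nothing particular to Oprm1 is read from its call.

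**Figure D3:**
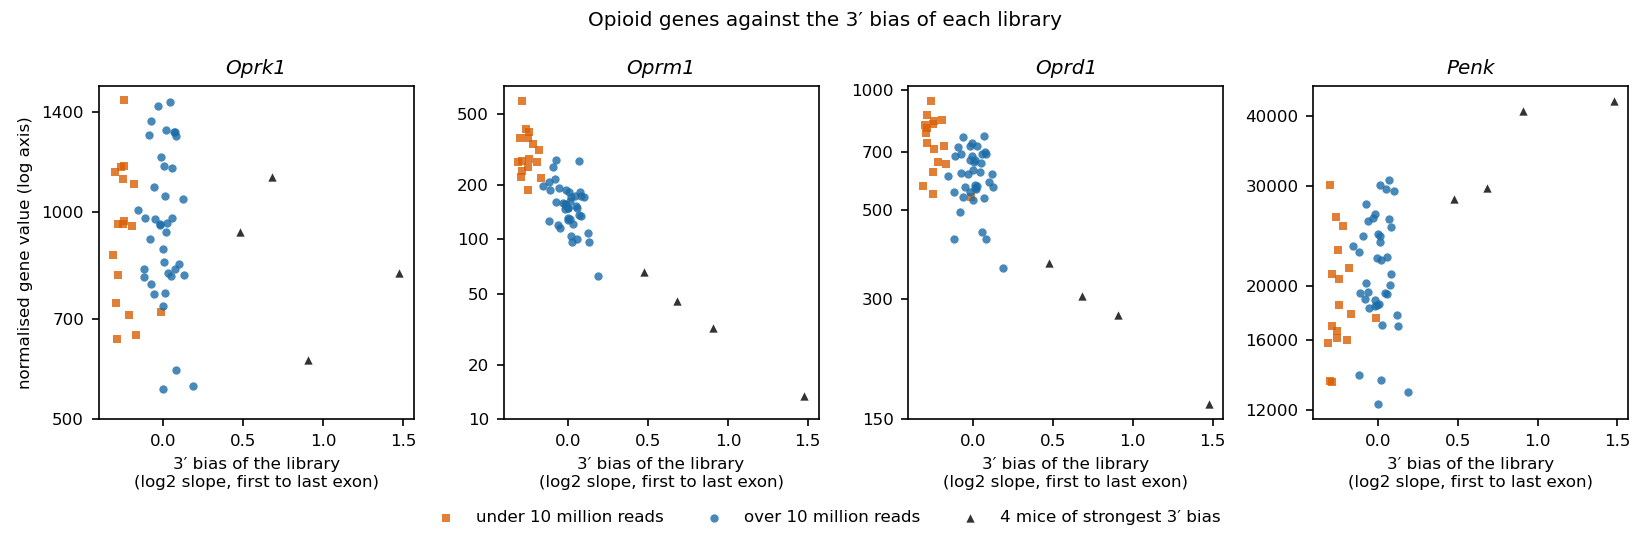
Normalised read counts (y axis, log scale) of the 4 genes against 3′ bias (x axis, log2 slope relative to the mean of all mice), 1 point per mouse, with the lower and higher read ranges marked. Mice 4, 5, 62 and 63 stand to the right, between 0.477 and 1.48, where Oprm1 and Oprd1 are low and Penk is high.

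The exon table showed where along each gene the reads lay. Its rows are placed on the older build mm9, so they were matched to GENCODE M21 exons on GRCm38 by equal spacing of their starts within the gene, and no coordinate was converted. All rows of Oprk1, Oprd1 and Penk were matched, as were 20 of 22 rows of Oprm1, whose region runs in the opposite direction in the older build.

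Oprk1 had 4 rows, of which the last, matched to the exon chr1:5602252-5606131 with 3880 bases, held 79.8% ± 3.49 (SD, n = 60) of its exon counts. The first 3 rows, in transcript order, held 2.24%, 5.12% and 12.9%. In the 4 mice of highest 3′ bias the last row held 84.6% to 94.7%, above the 74.6% to 83.7% of the other 56. The mean count of this row was 778 in the 4 mice and 770 in the others, whereas the mean of the first row was 11.5 against 22.6 and that of the third 56.5 against 129. The 4 mice were chosen for coverage toward the 3′ end, so a higher share in the last row goes with that choice. How many of all genes have a last row that separates these mice was not counted.

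Oprm1 had 22 rows, and 16 of them were at 0 in all mice. Most reads, 98.3% of its exon counts, lay in 4 rows. In transcript order these were the first exon at chr10:6788570-6789158 with 18.2%, the exon at chr10:6828885-6829237 with 14%, the exon at chr10:6829977-6830639 with 23.6% and the exon at chr10:6849806-6850613 with 42.4%. The sequence shared by all 3 receptors lies in the second of these. The mean counts were 37.4, 27.3, 46.7 and 83.3 in the 56 mice and 5.75, 6.75, 11.5 and 14.5 in the 4 mice, so all 4 rows were lower there. The first exon had 0 reads in 1 mouse.

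Oprd1 had 3 rows, and the last, at chr4:132110726-132114068, held 83.2% ± 2.23 (SD, n = 60) against 6.50% for the first and 10.3% for the second. Their mean counts, first to last, were 43.3, 67.2 and 537 in the 56 mice and 14.5, 22.5 and 240 in the 4 mice. Unlike the last row of Oprk1, the last row of Oprd1 was thus lower in these mice too.

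Penk had 2 rows. The exon at chr4:4133531-4134507, which codes for all 7 enkephalin repeats printed above, held 94.2% ± 0.477 (SD, n = 60), with a mean count of 33802 in the 4 mice and 19768 in the 56. The other row held 5.76% and averaged 1663 and 1221. Both rows were higher in the 4 mice.

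**Figure D4:**
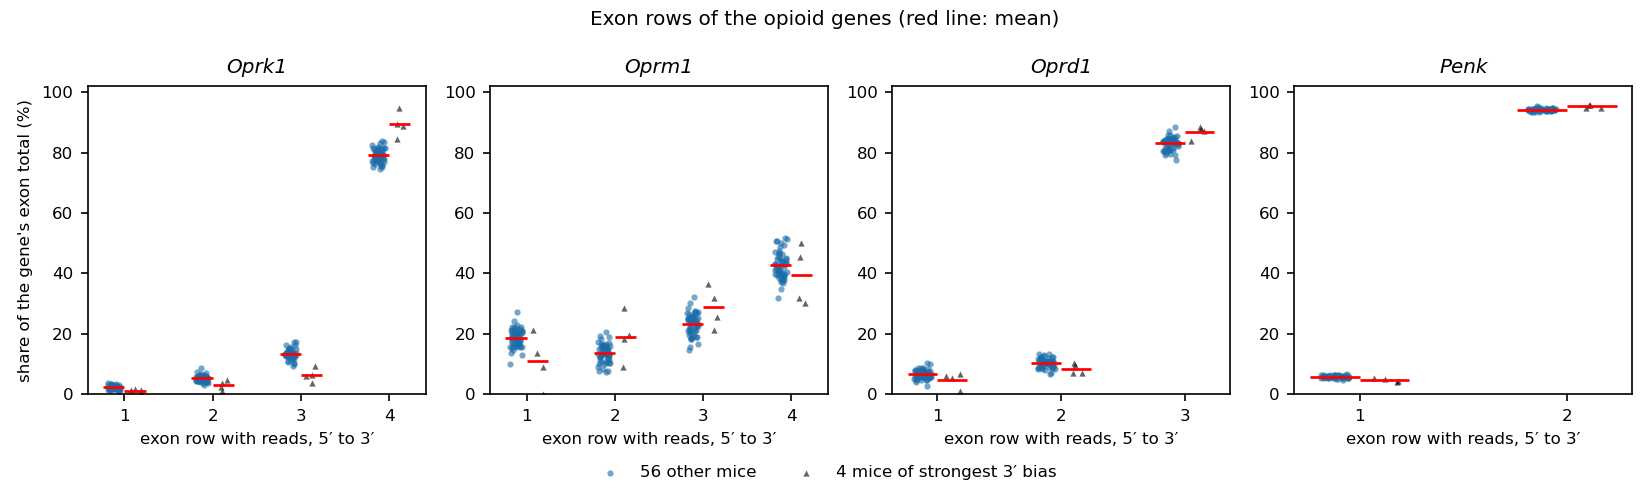
Share of each gene's exon counts (y axis, percent) in each exon row, 5′ to 3′ along the x axis, 1 point per mouse with the 4 mice of highest 3′ bias marked. The last row of Oprk1 holds 84.6% to 94.7% in these 4 mice and 74.6% to 83.7% in the other 56, and the Penk row with the enkephalin repeats averages 94.2%. The 4 mice were chosen for coverage toward the 3′ end.

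No exon row of these genes passed the test of exon use between responders and non-responders or between the sexes. The test asked whether a row changed relative to the other rows of its gene (limma diffSplice on log2(value + 1), 66690 rows averaging at least 10). Of the 13 rows of the 4 genes that were tested, 0 passed for response, where 88 of all rows did (0.132%), and 0 passed for sex, where 6 did (0.009%), with an adjusted p of 1.00 for every row. The last Oprk1 row held 79.9% in responders and 79.7% in non-responders. The 3′ bias term was called for 42.4% of all rows, and here 5 of the 13 rows passed. The last Oprk1 row rose by 1.19 per unit relative to the rest of the gene (adjusted p = 8.0e-07), and the last Oprd1 row by 0.54 (adjusted p = 0.0068). The first row of Oprd1 (-0.67, adjusted p = 7.7e-04) and the first of the 4 main rows of Oprm1, at chr10:6788570-6789158 (-0.90, adjusted p = 0.00117), fell, and the second of these 4, at chr10:6828885-6829237, rose by 0.61 (adjusted p = 0.031). For Penk the term was 0.36 in size (adjusted p = 0.17).

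The 4 genes were then set against lists of cell type markers, each summarised per mouse as the mean standardised log2 level of its members other than the opioid genes. Within each read range, 30 relations were computed, 60 in all, with two-sided permutation tests of 100000 resamples and Benjamini-Hochberg adjustment over the 60. The smallest p these resamples can give is 1e-05.

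Of the 4 lists that were related to the genes (direct pathway, indirect pathway, cortex and ventral striatum), Penk had its highest r with the indirect pathway list. This list holds Drd2, Adora2a (an adenosine receptor) and Gpr6, and 6 of its 9 genes were in the table, with a summed level of 11925 to 26275 over the mice. In the 43 mice of the higher read range Pearson's r was 0.89 (permutation p = 1e-05, adjusted p = 8.57e-05) and Spearman's rho 0.90 (p = 1e-05, adjusted p = 2.0e-04). In the 17 mice of the lower range r was 0.87 (permutation p = 1e-05, adjusted p = 8.57e-05) and rho 0.85 (p = 3e-05, adjusted p = 4.5e-04). Without the 2 mice farthest from the median of the list r was 0.86 and 0.83, and without the 4 mice of highest 3′ bias it was 0.94 in 39 mice. With the direct pathway list, of which 4 of 9 genes were in the table, r was 0.63 (permutation p = 2e-05, adjusted p = 1.5e-04) and rho 0.68 (p = 1e-05, adjusted p = 2.0e-04) in the higher range, and r was 0.65 (p = 0.00474, adjusted p = 0.0203) and rho 0.62 (p = 0.00983, adjusted p = 0.0421) in the lower.

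Against the cortical list Penk had a negative relation, with r = -0.56 (permutation p = 1.3e-04, adjusted p = 8.67e-04) and rho = -0.60 (p = 4e-05, adjusted p = 4.8e-04) in the higher range, r = -0.58 without the 2 farthest mice and r = -0.51 without the 4 mice of highest 3′ bias. In the lower range r was -0.39 and did not pass (adjusted permutation p = 0.23). The summed level of the 7 cortical markers was 12518 to 32954 and 8837 to 29998 in females without and with a response, and 11855 to 28140 and 8947 to 30469 in males. The part of cortical RNA in the levels of Penk was not tested.

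The receptors were related to several of the lists. Oprd1 rose with the 3 genes found of 14 listed for the ventral striatum and olfactory tubercle (Grik3, Cnr1 and Gda), with r = 0.77 (permutation p = 1e-05, adjusted p = 8.57e-05) and rho = 0.71 (p = 1e-05, adjusted p = 2.0e-04) in the higher range, and r = 0.62 (p = 0.00758, adjusted p = 0.0284) and rho = 0.70 (p = 0.00272, adjusted p = 0.0163) in the lower. Without the 4 mice of highest 3′ bias r was 0.65 in 39 mice, and without the 2 farthest mice it was 0.73 and 0.74 in the higher and lower ranges. The summed level of these 3 genes was 14038 to 16286 in the 4 mice and 15286 to 26905 in the other 56. Crym, Dlk1, Nts, Cartpt and Drd3 of the list were not in the table, so the amount of ventral tissue was not measured by it. Oprk1 was related to the same list (r = 0.53, permutation p = 2.3e-04, adjusted p = 0.00125, rho = 0.51, p = 5.8e-04, adjusted p = 0.00497) and to the indirect pathway list (r = 0.51, permutation p = 4.4e-04, adjusted p = 0.0022, rho = 0.48, p = 0.00153, adjusted p = 0.0102) in the higher range, and r was 0.59 and 0.62 in the 39 mice. Oprd1 also rose with the cortical list in the higher range (r = 0.43, permutation p = 0.00315, adjusted p = 0.0145, rho = 0.47, p = 0.00152, adjusted p = 0.0102) and had r = 0.32 in the lower (adjusted permutation p = 0.34). For Oprk1 with the ventral and indirect pathway lists, the values in the lower range were 0.33 and 0.34 and did not pass (adjusted permutation p = 0.33 and 0.32).

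For Oprm1 the relation with the ventral list (r = 0.61 in the higher range, permutation p = 1e-05, adjusted p = 8.57e-05, rho = 0.40, p = 0.00804, adjusted p = 0.0371) was 0.28 in the 39 mice and no longer passed (adjusted permutation p = 0.19), and in the lower range r was 0.18 (adjusted permutation p = 0.644). Oprm1 and 3′ bias had r = -0.50 in these 39 mice (permutation p = 0.00102, adjusted p = 0.00654, rho = -0.40, p = 0.0111, adjusted p = 0.0512) and r = -0.35 without the 2 farthest of them. In the lower range r was -0.48 and did not pass (adjusted permutation p = 0.138), and it was -0.0055 without the 2 farthest mice. The relation of Oprd1 and bias did not pass in the 39 mice (r = -0.17, adjusted permutation p = 0.45). These 39 mice were set apart after the data had been seen.

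Between the genes, Oprm1 and Oprd1 had r = 0.82 in the higher range (permutation p = 1e-05, adjusted p = 8.57e-05, rho = 0.42, p = 0.00627, adjusted p = 0.0314), which was 0.37 in the 39 mice and did not pass (adjusted permutation p = 0.0687). In the lower range r was 0.60 (permutation p = 0.00977, adjusted p = 0.0345) and rho 0.55 (p = 0.0239, adjusted p = 0.0844). Oprk1 and Penk had r = 0.57 in the 39 mice (permutation p = 1e-04, adjusted p = 8.57e-04, rho = 0.51, p = 0.00108, adjusted p = 0.0081), 0.33 in 43 mice and 0.53 in the lower range, and the last 2 values did not pass (adjusted permutation p = 0.09 for both). Oprm1 and Penk had r = 0.63 in the lower range (permutation p = 0.00642, adjusted p = 0.0257, rho = 0.68, p = 0.00375, adjusted p = 0.0205) and 0.52 in the 39 mice (permutation p = 6.2e-04, adjusted p = 0.00465). With the 4 mice of highest 3′ bias included it was -0.26. With total reads, r was -0.12 to 0.18 for the 4 genes within the read ranges, and none passed.

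**Figure D5:**
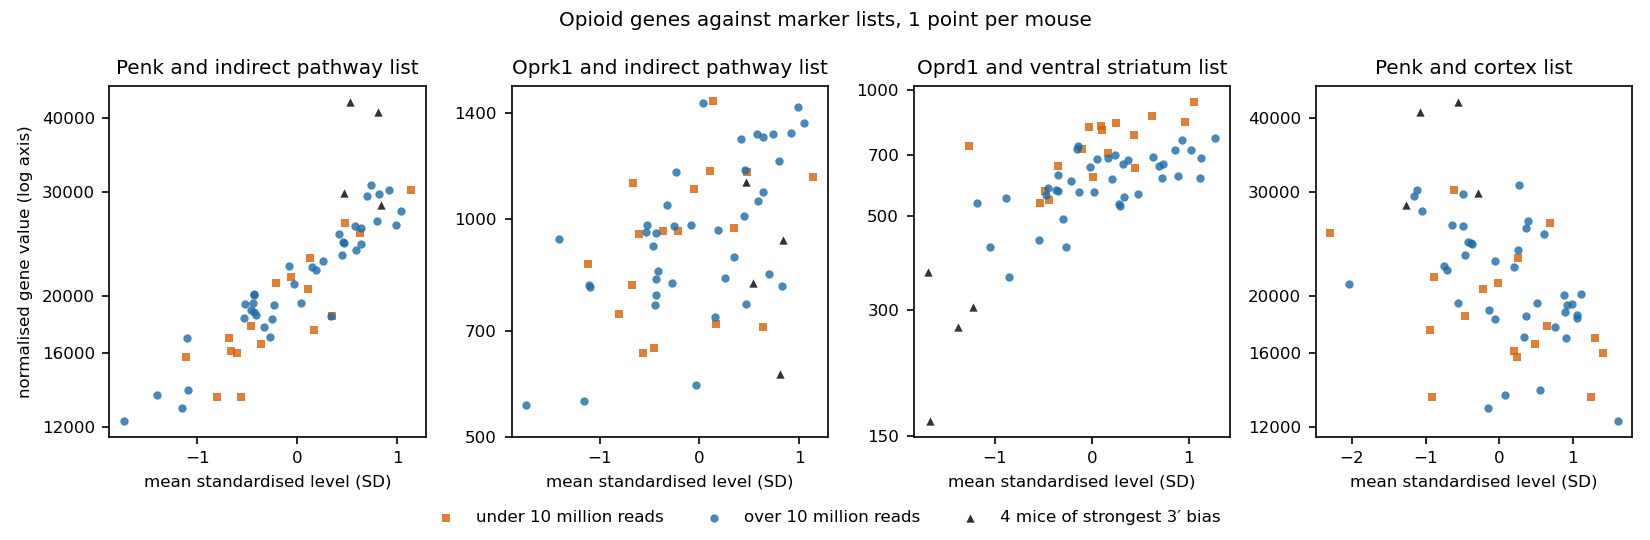
Normalised read counts (y axis, log scale) of Penk and Oprk1 against the indirect pathway list, Oprd1 against the ventral striatum list and Penk against the cortex list (x axis, mean standardised log2 level in SD), 1 point per mouse, with read ranges and the 4 mice of highest 3′ bias marked. Penk rises with the indirect pathway list in both read ranges, r = 0.89 in 43 mice and r = 0.87 in 17. The ventral striatum list holds only Grik3, Cnr1 and Gda here.

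Single genes with a like pattern were taken as those of highest and lowest r of log2 values over the 60 mice among 7849 genes averaging at least 100. These values are descriptions, and the mice share the read ranges and the 3′ bias. For Penk the closest were Ppp2r2a (r = 0.91), Gnb5 (0.88), Pde1b (0.87), Drd2 (0.86) and Nsg2 (0.85). Gnb5 encodes a G protein beta subunit, and Pde1b a phosphodiesterase abundant in striatum. For Drd2 r was 0.87 in the 43 and 0.79 in the 17 mice. The lowest were 1700025G04Rik (-0.82), Grk3 (-0.81), Shank1 (-0.81), Apc (-0.78) and Zeb2 (-0.75), of which Grk3 encodes a kinase that phosphorylates G protein-coupled receptors.

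For Oprk1 the closest genes, less like it, included Dgkb (0.73), Pde4b (0.72), Mef2a (0.71) and Hs6st2 (0.71), and no gene exceeded 0.8 in either direction. Its lowest were Fgfr3 (-0.64), Zfp651 (-0.61), Tbkbp1 (-0.60), Psd2 (-0.59) and Plekhm2 (-0.59). Oprm1 and Oprd1 had many close genes. For Oprm1 they were led by Ago2 (0.94), Tenm1, Adgrl3, Soga1 and Mdga2 (0.93 each), and for Oprd1 by Dock3 (0.93), 4932438A13Rik, Adgrl3, Hs6st3 and Gatad2b (0.92 each). The lowest were Ubxn6 (-0.87), Ufc1, Slc25a4, Maf1 and Tmem9b (-0.86 each) for Oprm1, and Erp29 (-0.89), Imp3 (-0.89), Maf1 (-0.87), Sdf2 and Eif3f for Oprd1. In the 56 mice without the highest 3′ bias, r was 0.89 for Ago2 with Oprm1 and 0.81 for Dock3 with Oprd1. The number of genes with r over 0.8 in size was 505 for Oprm1 and 590 for Oprd1 in 60 mice, and 53 and 13 in these 56 mice. For Penk it was 14 and 7.

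Neighbouring genes on the chromosome were set beside the median r over all genes averaging at least 100. This median was 0.058 for Oprk1, 3.7e-04 for Oprm1, 0.052 for Oprd1 and 0.058 for Penk over the 60 mice. The 2 nearest genes of the table on either side had r from 0.10 to 0.26 with Oprk1 (Rgs20, Atp6v1h, Rb1cc1 and St18), from -0.52 to 0.42 with Oprm1 (Rmnd1, Armt1, Lrp11 and Pcmt1), from 0.30 to 0.64 with Oprd1 (Epb41, Gm13214, Ythdf2 and Gmeb1) and from -0.44 to 0.55 with Penk (Plag1, Chchd7, Impad1 and Fam110b) over the 60 mice. The highest of these, Epb41 with Oprd1, had 0.58 in the 43 and 0.36 in the 17 mice. With Oprm1, Rmnd1 went from 0.42 over the 60 mice to -0.028 in the 43 and 0.14 in the 17. Pcmt1 went from -0.52 to -0.42 and -0.048. With Penk, Fam110b had 0.64 and 0.40 within the ranges, and Plag1 -0.35 and -0.62.

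In networks built as the study describes, each gene has a connectivity, the sum of its absolute correlations with all 9066 genes raised to a power. For coexpression the correlations were those of gene values. For cosplicing and CoSplicEx they were Mantel correlations of cosine and Canberra distances between mice, computed from all exon rows of a gene. By coexpression Oprd1 stood at percentile 92.1 of connectivity, Oprm1 at percentile 74.3, Penk at percentile 36.3 and Oprk1 at percentile 8.63. By cosplicing the order was different, with Oprk1 at percentile 81.0, Penk at percentile 66.2, Oprm1 at percentile 58.7 and Oprd1 at percentile 38.6. By CoSplicEx, which keeps both level and exon pattern, Oprd1 was at percentile 92.0, Oprm1 at percentile 69.5, Oprk1 at percentile 66.5 and Penk lowest of the 4, at percentile 31. Without mouse 63 the percentile of Oprk1 by CoSplicEx moved most, from 66.5 to 47.4. The highest connectivity of all genes also fell, from 1540 to 825 by cosplicing and from 816 to 420 by CoSplicEx. The connectivity values depended on this mouse more than most percentiles did. Without it the connectivity of Oprk1 went from 791 to 248 by cosplicing and from 56.9 to 2.39 by CoSplicEx (percentiles 82.7 and 47.4), that of Oprd1 from 17.7 to 1.54 and from 433 to 124 (percentiles 29.6 and 91.3), that of Oprm1 from 198 to 35.8 and from 76.1 to 24.3 (percentiles 59.6 and 76.3), and that of Penk from 365 to 51.4 and from 2.09 to 0.673 (percentiles 63.8 and 27.8).

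The closest genes by cosplicing were Rreb1 (Mantel r = 0.90), Gabbr2 (0.89) and Crtc1 (0.89) for Oprk1, Ugdh (0.58), Gpt2 (0.56) and Sh3rf3 (0.55) for Oprd1, and Ywhag (0.82), Nefm (0.81) and Lrtm2 (0.81) for Penk. Gabbr2 encodes a subunit of the GABA-B receptor, another Gi-coupled receptor. For Oprm1 the small RNA genes Gm24564, AF357425 and Snord71 shared the same value of 0.77. For a gene with a single exon row, the cosine distance only separates mice with reads from mice without, and carries no exon pattern. Whether the tie arises in this way was not tested. By CoSplicEx the closest were Gucy1a1 (0.70), Plppr4 (0.69) and Strn (0.69) for Oprk1, Ntrk3 (0.71), Tenm4 (0.71) and Rere (0.70) for Oprm1, Arid1a (0.90), Trio (0.90) and Gatad2b (0.89) for Oprd1, and Gpr6, Dlx6 and Pde1b (0.57 each) for Penk. Gpr6 and Pde1b are on the indirect pathway and medium spiny neuron lists.

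The wider pathway was described by lists of genes that act on opioid peptides or below their receptors. None of the genes on any of the 18 lists passed the test for response, for sex or for their interaction. Of all genes tested, 0.105%, 0.0351% and 0.0% were called in these comparisons, so the absence of calls is close to those shares. The median log2 response difference was -0.00 over the 12 of 14 peptide processing genes tested, -0.06 over 8 of 12 peptide degradation genes, -0.04 over 9 of 14 G protein subunits, 0.00 over 14 of 22 RGS proteins, kinases and arrestins, -0.03 over 25 of 27 receptor effectors, -0.01 over 12 of 15 receptor binding and trafficking genes and 0.04 over 7 of 13 regulators of Pdyn and Oprk1, beside -0.00 over all genes. The smallest p among them was that of Scg3, a granin of secretory granules, at a log2 difference of -0.15 (SE 0.0405, unadjusted p = 4.4e-04, adjusted p = 0.117, limma).

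Along the 3′ bias many genes of the lists were called, but so were 76.9% of all genes tested (39.6% rising and 37.4% falling). Of the 12 processing genes 6 rose and 3 fell with the bias, with Pcsk1 (prohormone convertase 1) at -0.74 per unit, its inhibitor Pcsk1n at 0.69 and Cpe (carboxypeptidase E) at 0.50. Of the 25 effectors 5 rose and 11 fell, with Kcnj6, a subunit of the potassium channels that receptors of this class open, at -2.42 and the calcium channel gene Cacna1c at -1.53, while Ppp1r1b, which encodes DARPP-32, was at 0.57. Of the 8 degradation genes 1 rose and 2 fell (Lnpep at -2.48), and of the 9 G protein subunits 5 rose and 1 fell.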

How the data were processed

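PolyA RNA-seq of striatum from 60 mice was analysed, 1 library per mouse, and errors are the spread between mice. In the gene table, the values deposited are a signal: counts of reads that the authors multiplied by 1 factor for each library. Dividing by the step between values gave whole reads (100% of values within 0.01 reads). In the exon table the deposited value is a score, the scaled count of each exon rounded to a whole number. Per the labels and the methods, the authors aligned reads with Bowtie 0.12.7 to NCBI m37 (mm9), counted union exons of Ensembl gene models and took upper quartile factors from edgeR 3.4.2 in R 3.0.2. Reads shared between related genes were not examined here.

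Groups were compared with limma 3.58.1 (trend option, R 4.3.3) on log2(value + 1), keeping genes with a mean of 10 or more, and exon rows with its diffSplice. The files held neither plain counts nor a unit named in them, so limma stayed the main test, and edgeR 4.0.16 and DESeq2 1.42.0 were run on recovered reads as alternatives. A fold on this scale understates changes of low genes. A test on simulated data for the response comparison had 8535 genes, 200 of them changed by 0.5 on the log2 scale. There limma recovered 100% with 10 false calls. Recovery of such a change at the spread of the opioid genes between mice was not tested. Their coefficient of variation was 0.238 for Oprk1 and Oprd1, 0.281 for Penk and 0.529 for Oprm1. Relations, sequences and networks used scipy 1.17.1, numpy 2.4.6, Biopython 1.88 and pandas 2.3.3 in Python 3.11.15, and figures matplotlib 3.10.9. Gene structure came from GENCODE M21, which held 97.7% of the identifiers. No library was a duplicate of another, since the chi-square per gene over the 1770 pairs of mice had a minimum of 3.02 and a median of 62.6, where sampling noise alone gives about 1.

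The genes, marker lists and tests were chosen with earlier results of these data known. Named genes were the opioid genes found, the 5 genes of highest and of lowest r with each, the 3 closest by cosplicing and by CoSplicEx, the 2 nearest neighbours on each side, called list members and the sex check genes, except that some are not reported here. Scg3 and the genes named for 3′ bias were chosen after their values were seen. Alternatives covered the pseudocount, filter, scaling, test, read range, 3′ bias, cortical level, sex and single mice. No promoter of Oprk1 or Penk and no protein sequence was used here.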

Additional observations from a re-analysis of the deposited data

How the results depend on the processing

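None of the 4 genes passed the test for response, sex or interaction under any alternative, and the smallest adjusted p over alternatives (limma, edgeR or DESeq2) was 0.72. The number of all genes called for response, 9 with limma, was 23 with DESeq2, 58 with 3′ bias, 15 with the cortical level, 20 with the read range and 82 with range and bias as terms (the last chosen after seeing the data), 5 among genes averaging at least 500, 3 above and 0 below 10000000 reads, 0 in females and 0 in males, and 7 to 14 when single mice were left out. For sex the 3 calls were 0 above and 1 below 10000000 reads, 1 in non-responders, 0 in responders and 2 to 3 without single mice. Exon rows called for response, 88, were 57 with a pseudocount of 10, 180 with rows averaging at least 1, 140 without the 4 mice of highest 3′ bias, 177 with bias as a term and 75 to 105 without single mice. Exon rows called for sex, 6, were 85, 2 and 13 with rows averaging at least 1, above 10000000 reads and with bias, and 5 to 9 without single mice. The causes were not tested.

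Among the group differences, signs turned in the following, none of which passed. For response these were Oprk1 at -0.032 below 10000000 reads and -0.034 in males, Oprd1 at 4.8e-05 with range and bias, and Penk at -0.0028 without mouse 63, -0.11 below 10000000 reads, -0.011 with bias, -0.0053 with the cortical level, -0.044 in males and -0.011 with range and bias. Leaving out single mice gave -0.0035 to 0.062 for Penk. For sex they were Oprk1 at 0.027 without the 4 mice, 0.25 below 10000000 reads and 0.084 in responders (-0.042 to 0.015 without single mice), and Oprd1 at -0.0047 above 10000000 reads. For the interaction they were Oprk1 at -0.13, Oprm1 at -0.80 and Penk at -0.54 below 10000000 reads, Oprm1 at -0.086 with edgeR and -0.11 with DESeq2, Oprd1 at 0.056 without mouse 63 and 0.065 above 10000000 reads. Without single mice, Oprm1 had -0.14 to 0.32 and Oprd1 -0.18 to 0.056.

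Of the 17 relations that passed within a read range, 12 were in the range that held the 4 mice. Without these mice 8 of the 12 kept their call, 3 no longer passed and Penk with 3′ bias turned from 0.54 to -0.067. With untransformed values 2 of the 17 no longer passed. Cosplicing and CoSplicEx connectivity depended on mouse 63, as given with the networks. The coexpression connectivity of Oprk1 was 31.6 above 10000000 reads (12.6 in all mice), and that of Oprm1 was 529 with log2 values (240 untransformed). No paired analysis was possible because mouse numbers are not shared between groups. The interval of Oprm1 for response includes log2 differences down to -0.66, and to -0.27 with 3′ bias as a term.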
